A study of Mus musculus with 6 samples.

Results

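The transcripts of 42 chromatin and DNA methylation regulators were compared between splenic follicular (Fo) B cells of G9gl homozygous mice and of B6 control mice (WT), all aged 8 weeks, with 3 RNA-seq libraries per genotype. The genes were taken by symbol as writers, erasers and subunits of DNA methylation, histone modification, corepressor and nucleosome remodelling machineries. The rule itself uses no measured value, but the genes were chosen with earlier results of these data known. All 42 were among the 24346 gene symbols in the tables. G9gl mice carry, homozygous and as a knock-in, the heavy and light chain of the germline precursor of a lupus-derived antibody to double-stranded DNA. The sources used here give neither the knock-in sites nor whether the B6 controls were littermates. The cells of both genotypes were sorted as B220+ CD93- cells with low CD21 and high CD23. The comparison was made by the study to learn about the anergic state of G9gl B cells, in which a self-reactive cell persists but responds weakly to antigen.

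DNA methyltransferases place methyl groups on cytosine in CG dinucleotides, and TET dioxygenases oxidise them as a first step of removal. Histone methyltransferases, acetyltransferases and the enzymes that reverse them set the modifications of nucleosomes at promoters and enhancers, corepressors such as CoREST and NCoR hold deacetylases and demethylases at transcription factors, and remodellers of the SWI/SNF and CHD families use ATP to move or evict nucleosomes. In B cells these machineries are known for their work in commitment to the lineage, in the germinal centre reaction and in the entry into and exit from quiescence.

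Values are FPKM (fragments per kilobase of transcript, scaled for the size of the library). Fold changes are G9gl minus WT differences of log2(FPKM + 1) with limma standard errors (SE), which understate the change of genes with low FPKM. A gene was called higher or lower where limma's Benjamini-Hochberg adjusted p over all 10122 tested genes was under 0.05. No label says that the 3 libraries of a genotype came from separate animals, so the spread that the p-values measure may be technical. Estimated depth was 9300000 to 10980000 fragments per library. The B cell receptor gene Cd79a was abundant in every library (2167 to 2300.4 FPKM in G9gl and 2408 to 2625 FPKM in WT), and of the immature B cell genes Rag1, Rag2, Dntt and Igll1 were below 1 FPKM in every library and Cd93 at most at 1.89 FPKM. Vpreb3, on the same list, was abundant and called lower, at 149.7 to 180.2 FPKM in G9gl against 388.7 to 420.1 FPKM in WT (log2 fold change -1.28, limma adjusted p 4.40e-06). Of the 4 tested plasma cell markers Jchain (5.43 to 6.98 FPKM in G9gl and 0.414 to 0.795 FPKM in WT) and Sdc1 (13.7 to 23.3 FPKM in G9gl and 8.51 to 10.7 FPKM in WT) were called higher and Irf4 lower. Both tested NK cell markers, Prf1 and Nkg7, were called higher, with a sum over the list of 7.98 to 11.8 FPKM in G9gl against 3.05 to 5.24 FPKM in WT. Prf1 alone had 4.98 to 8.10 FPKM in G9gl and 1.28 to 2.32 FPKM in WT. The other NK cell markers, Ncr1, Klrb1c and Gzma, were too low to test, and their groups overlapped. Lck of the T cell list, whose other genes stayed below 3 FPKM, was also called higher. Of 12 follicular B cell markers, 2 were called higher and 6 lower in G9gl, with a summed level of 8333 to 8679 FPKM in G9gl against 9100 to 9415 FPKM in WT. Macrophage markers were low but higher in G9gl, with 8 of 10 tested called higher and a sum of 45.1 to 48.9 FPKM in G9gl against 15.9 to 20.8 FPKM in WT, and Marco and Mertk were below 1 FPKM in every library. Neutrophil and monocyte markers summed to 62.9 to 79.5 FPKM in G9gl against 19.8 to 29.4 FPKM in WT (3 of 4 tested called higher), and genes of cell dissociation stress to 1336 to 1831 FPKM in G9gl against 860 to 1269 FPKM in WT (3 of 7). Of 13 tested proliferation genes 9 were called higher, with a sum of 214.5 to 242.1 FPKM in G9gl against 169.9 to 187.1 FPKM in WT. Their part in the results below was not tested.

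Among the regulators, called decreases outnumbered called increases, though after a correction for GC content and length, given below, 4 were called in each direction. Rcor1, which encodes the corepressor CoREST1, was lowest relative to WT, at 8.53 ± 1.51 FPKM in G9gl and 24.7 ± 2.96 FPKM in WT (SD, n = 3 each), and the deacetylase genes Sirt1 and Hdac4 followed. The decreases of Tet3, Hdac5, Chd4, Ncor1, Smarca2, Ehmt1 and Ep300 were smaller, with log2 fold changes between -0.38 and -0.22. Hdac1 and Kdm5b rose, by 0.28 and 0.32 on the log2 scale. Of 41 tested regulators, 2 were called higher and 10 lower and 29 did not pass, against 11.8% called higher and 11.6% called lower among all tested genes. The regulators thus had 4.88% called higher and 24.4% called lower, with a median log2 fold change of -0.09 against -0.0022 over all tested genes. By sign alone, 11 were above 0 and 30 below, and of all tested genes 50.3% were below 0. The G9gl libraries lay above all WT libraries for 4 regulators and below all of them for 16, that is 9.76% and 39.0%, against 20.3% and 20.5% of all tested genes, and for the other 21 the groups overlapped. In RNA of a sorted population, fewer cells that express a gene and less RNA per cell cannot be told apart.

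**Figure D1:**
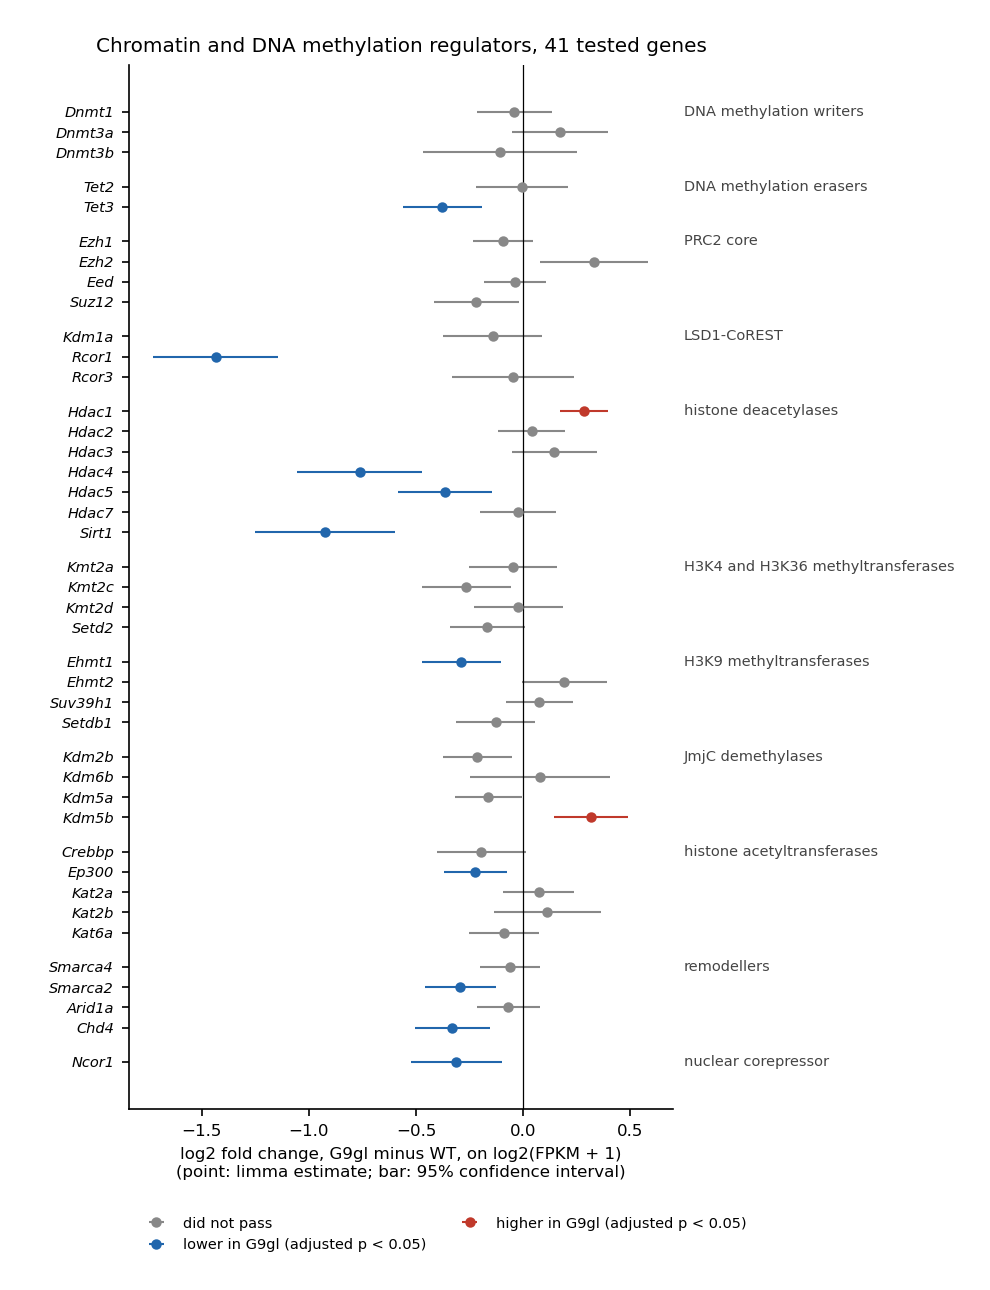
Log2 fold change (G9gl minus WT, horizontal axis) of the 41 tested regulators, grouped by role, with points for the limma estimate and bars for its 95% confidence interval. Rcor1 at -1.44, Sirt1 at -0.92 and Hdac4 at -0.76 stand to the left of all others, and Hdac1 and Kdm5b are the 2 genes called higher.

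The split between directions depended on how libraries were scaled. With the values rescaled to TPM, where each library sums to the same total, the median of all tested genes moved to -0.13, and 1 regulator was called higher and 18 lower, or 2.44% and 43.9%, against 7.21% and 24.6% of all genes. Relative to that shift the median of the regulators was -0.09. After correction for GC content and length, a trend fitted over all genes, 4 were called higher (Hdac1, Kdm5b, Dnmt3a and Ehmt2) and 4 lower (Rcor1, Sirt1, Hdac4 and Chd4). That is 9.76% in each direction, against 11.0% and 11.4% of all genes, so neither share was then above that of all genes. The median was -0.04 against -0.0076 over all genes. The regulators have long transcripts, with a median of 5896 bases against 2993 bases for tested genes, and 23 of the 41 fell among the 20% of genes with the longest transcripts. In that group of all genes, the calls were 5.80% higher and 17.7% lower and the median log2 fold change was -0.10, whereas the 20% with the shortest transcripts had 20.8% called higher, 5.65% called lower and a median of 0.11.

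**Figure D2:**
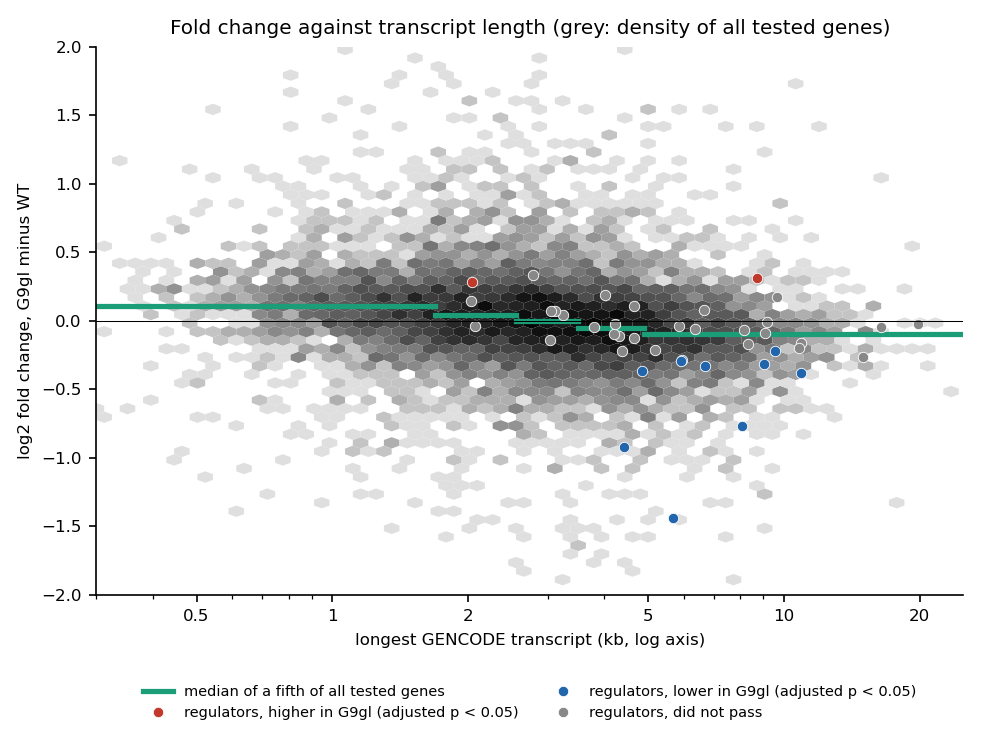
Log2 fold change (G9gl minus WT, vertical axis) against the length of the longest annotated transcript (kb, log axis), with the density of all tested genes in grey on a log colour scale, the median of each bin of 20% of genes as green lines and the 41 regulators as points. The medians step down from 0.11 for the shortest transcripts to -0.10 for the longest, and Rcor1, Sirt1 and Hdac4 lie far below the median of genes of their length. Genes beyond the axis limits are not drawn.

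Rcor1 (chromosome 12, 111039351 to 111115901, mm10) had 10.1, 7.15 and 8.29 FPKM in G9gl replicates 1 to 3, against 25.9, 26.8 and 21.3 FPKM in WT. The groups did not overlap, and the highest G9gl library lay below the lowest WT library by more than the range of either group. The log2 fold change was -1.44 ± 0.129 (SE), with a limma adjusted p of 8.06e-05 and a ratio of mean FPKM that was 2.89-fold lower in G9gl. CoREST1 bridges the lysine demethylase LSD1 to histone deacetylases 1 and 2 and lets LSD1 act on nucleosomes. Its catalytic partner gene Kdm1a, which encodes LSD1, had 23.9, 18.6 and 23.9 FPKM in G9gl against 23.3, 25.9 and 23.9 FPKM in WT, with overlapping groups (log2 fold change -0.14, 95% confidence interval -0.37 to 0.09, limma adjusted p 0.355). Rcor3, which encodes a close relative of CoREST1, had 7.36, 5.54 and 5.37 FPKM in G9gl against 6.05, 6.86 and 5.94 FPKM in WT, again overlapping (-0.05, interval -0.33 to 0.24). Within each library, Rcor1 transcripts were 1.38, 1.29 and 1.54 times as abundant per length as those of Rcor3 in G9gl, and 4.28, 3.91 and 3.58 times as abundant in WT. The ratio of Rcor1 to Kdm1a was 0.348 to 0.425 in G9gl and 0.892 to 1.11 in WT. Rcor2, which encodes the remaining CoREST protein, was too low to test, at 0.272 to 0.447 FPKM in G9gl and 0.313 to 0.606 FPKM in WT.

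The promoter windows of RefSeq (build GRCm38.p6) held 37 of the 42 regulators in 53 windows, each shown or counted over the 250 bases before an annotated start. CG dinucleotides, the substrate of the DNA methylation enzymes among the regulators, numbered 23 per window at the median (2 to 51), against 16 in 9877 windows of tested genes and 6 over all 32851 windows. The windows of the 3 genes that fell most (Rcor1, Sirt1 and Hdac4), of Rcor3 as the relative of Rcor1 that was not called, and of Kdm5b as a gene that rose are printed 5′ to 3′, with CG in capitals. Rcor1 lies at chr12:111039117-111039366 (plus strand, 25 CG), Sirt1 at chr10:63339036-63339285 (minus, 39 CG), Hdac4 at chr1:92180342-92180591 (minus, 23 CG), Rcor3 at chr1:192138041-192138290 (minus, 39 CG) and Kdm5b at chr1:134559928-134560177 (plus, 13 CG).
Rcor1: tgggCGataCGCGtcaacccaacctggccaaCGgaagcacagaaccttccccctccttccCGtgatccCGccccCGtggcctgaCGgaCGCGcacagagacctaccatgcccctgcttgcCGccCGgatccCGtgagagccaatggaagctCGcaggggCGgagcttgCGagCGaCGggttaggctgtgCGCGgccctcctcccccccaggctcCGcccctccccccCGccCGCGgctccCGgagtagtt
Sirt1: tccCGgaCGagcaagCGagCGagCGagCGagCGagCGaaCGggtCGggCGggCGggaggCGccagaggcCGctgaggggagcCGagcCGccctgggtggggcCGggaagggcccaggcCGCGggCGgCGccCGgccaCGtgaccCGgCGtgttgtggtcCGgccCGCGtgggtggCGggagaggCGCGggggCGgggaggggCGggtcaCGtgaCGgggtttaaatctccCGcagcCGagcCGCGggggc
Hdac4: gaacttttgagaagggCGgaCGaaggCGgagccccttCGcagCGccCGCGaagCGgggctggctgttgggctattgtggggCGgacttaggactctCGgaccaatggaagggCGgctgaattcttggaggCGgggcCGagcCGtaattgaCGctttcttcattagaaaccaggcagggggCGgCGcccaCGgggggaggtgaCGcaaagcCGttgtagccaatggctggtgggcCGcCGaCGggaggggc
Rcor3: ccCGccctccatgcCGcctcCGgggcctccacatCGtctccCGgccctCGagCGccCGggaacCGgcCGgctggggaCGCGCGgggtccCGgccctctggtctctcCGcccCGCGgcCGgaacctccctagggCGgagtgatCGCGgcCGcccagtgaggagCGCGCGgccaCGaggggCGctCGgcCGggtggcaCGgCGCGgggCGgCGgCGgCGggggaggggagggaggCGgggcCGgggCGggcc
Kdm5b: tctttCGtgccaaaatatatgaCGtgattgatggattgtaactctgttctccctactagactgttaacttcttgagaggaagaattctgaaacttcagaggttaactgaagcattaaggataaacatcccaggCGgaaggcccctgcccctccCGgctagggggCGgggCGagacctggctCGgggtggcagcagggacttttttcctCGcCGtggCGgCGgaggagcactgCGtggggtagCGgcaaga
The windows of Rcor1, Sirt1 and Hdac4, which fell, and of Rcor3, which was not called, hold 23 to 39 CG each, and that of Kdm5b fewer. The printed windows do not stand for all genes called. Those of the other genes called lower hold 12 CG (Hdac5), 17 (Tet3), 25 (Ep300), 26 (Ehmt1), 28 (Smarca2), 12 and 23 (Chd4), and 2 and 34 (Ncor1). Hdac1, the other gene called higher, has no window. Searched on both strands, the E2F strings TTTCCCGC and TTTGGCGC were in 2 of the 53 windows (3.77%, Arid1a and Suz12) against 1.30% of all windows, and the NF-Y string CCAAT in 15 (28.3%) against 33.9%. The EGR string GCGTGGGCG was in 1 window (1.89%, Ehmt2) against 0.536%, and the ETS string CCGGAAGT in 0 against 2.88%. None of these strings contains another, and a match is a description of the letters only. The shares of all windows come from a set with fewer CG (median 6 against 23). Shares over the windows of tested genes were not computed. Among the windows printed, those of Rcor1 and Hdac4 hold CCAAT.

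Rcor1 lies 2.14 Mb from the immunoglobulin heavy chain cluster (chromosome 12, 113254830 to 116010093). Of 66 tested genes within 10 Mb of that cluster, 10 were called higher and 12 lower, or 33.3% in all, against 23.4% of all tested genes. Of the 44 within 10 Mb of the kappa light chain cluster on chromosome 6, where no regulator lies, 15.9% were called, and neither difference was tested. Of the 10 tested neighbours of Rcor1, 5 on each side, only Traf3, which encodes a signalling adaptor and is the next gene towards the cluster, was called (log2 fold change -0.25, limma adjusted p 0.0339). Mark3, a kinase gene on the same side, had a log2 fold change of -0.40 without passing (adjusted p 0.0761). The remaining neighbours on that side, Eif5 (-0.18, adjusted p 0.0950), Snora28 (-2.62, adjusted p 0.510) and Trmt61a (0.16, adjusted p 0.353), did not pass either. The 5 neighbours on the other side had log2 fold changes between -0.06 and 0.06. The part of the position of Rcor1 in its decrease was not tested.

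Of the 7 deacetylase genes, 1 rose and 3 fell, or 14.3% and 42.9%, against 11.8% and 11.6% of all tested genes. Sirt1, which encodes an NAD-dependent deacetylase of histones and transcription factors, had 3.98, 3.04 and 3.29 FPKM in G9gl against 8.41, 8.10 and 5.87 FPKM in WT. The groups were well apart, although WT replicate 3 was lower than the other WT libraries (log2 fold change -0.92 ± 0.145, limma adjusted p 0.00185). These values rest on an estimated 136 to 375 fragments per library. Hdac4, a class IIa deacetylase gene whose product is carried out of the nucleus after calcium signals, had 3.64, 2.70 and 3.06 FPKM in G9gl against 6.88, 5.58 and 5.57 FPKM in WT, without overlap (-0.76 ± 0.129, adjusted p 0.00272). In the annotation 22.4% of the exon bases of Hdac4 are shared with Gm26720, a noncoding gene on the opposite strand, and fragments of the 2 cannot be told apart in these unstranded libraries. For the other genes called, the share of exon bases that another gene also covers was at most 1.26%. Hdac5, a further class IIa gene, had 15.3, 17.1 and 14.7 FPKM in G9gl against 18.1, 21.1 and 22.5 FPKM in WT. Its groups were apart by a small gap, between G9gl replicate 2 and WT replicate 1 (-0.37 ± 0.0974, adjusted p 0.0245), and the adjusted p was 0.0805 to 0.0847 without G9gl replicate 3, WT replicate 2 or WT replicate 3. The call of Hdac5 was also lost after the GC and length correction (adjusted p 0.175).

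Hdac7, the most abundant of the class IIa genes among the regulators per length, had 22.8 to 25.8 FPKM in G9gl and 22.7 to 25.3 FPKM in WT and did not pass (interval of the log2 fold change -0.20 to 0.15). The ratio of Hdac4 to Hdac7 was accordingly 0.117 to 0.159 in G9gl and 0.220 to 0.277 in WT. Hdac9, the remaining class IIa gene, was not among the 42 regulators and rose, with 21.2, 27.4 and 27.4 FPKM in G9gl against 17.7, 17.2 and 15.8 FPKM in WT (log2 fold change 0.55, adjusted p 0.00553). The 4 genes of the class thus held 1 that rose, 2 that fell and 1 that did not pass. That is 25% higher and 50% lower, against 11.8% and 11.6% of all tested genes. Of the class I genes, Hdac1 was the most abundant of all 42 regulators per length. It had 194.5, 190.3 and 189.8 FPKM in G9gl against 153.9, 154.2 and 163.5 FPKM in WT, with little spread in either group (0.28 ± 0.0498, adjusted p 0.00327). Hdac2, which encodes the partner of HDAC1 in the NuRD, Sin3 and CoREST complexes, had 46.8 to 51.9 FPKM in G9gl and 46.7 to 51.9 FPKM in WT. Hdac3, the enzyme of the NCoR complex, had 45.6 to 57.6 FPKM in G9gl and 43.1 to 46.3 FPKM in WT. Neither passed (adjusted p 0.714 for Hdac2 and 0.273 for Hdac3). Close paralogues can share fragments, and the sources used here do not say how the authors assigned such fragments.

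**Figure D3:**
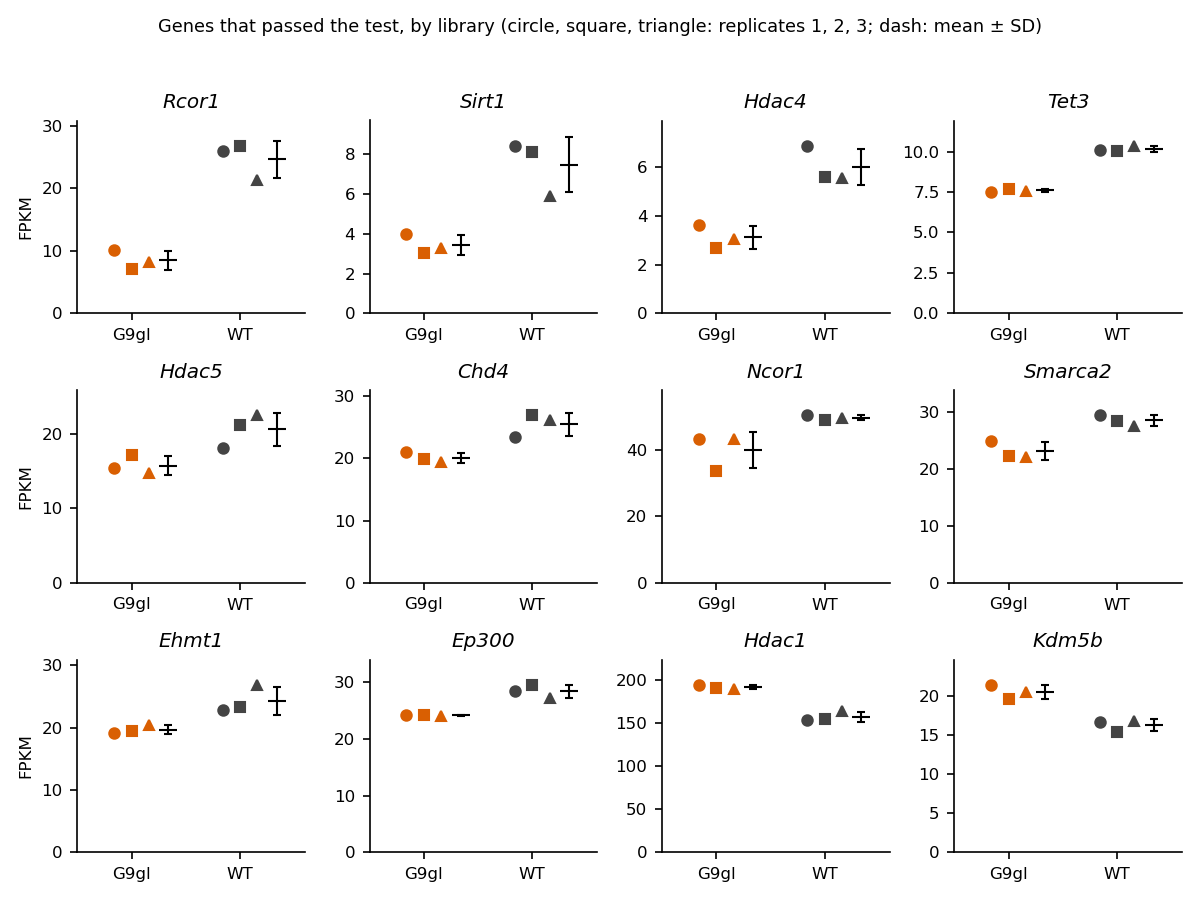
FPKM in each library for the 12 regulators that passed the test, with G9gl at the left and WT at the right of each panel, 1 symbol per replicate, and a dash and bar for the mean ± SD (n = 3). In every panel the 3 G9gl libraries lie on one side of the 3 WT libraries, with a wide gap for Rcor1 and a small one for Hdac5.

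Ncor1, which encodes the nuclear receptor corepressor that activates HDAC3, had 43.3, 33.8 and 43.3 FPKM in G9gl against 50.5, 49.2 and 49.5 FPKM in WT. G9gl replicate 2 was lower than the other G9gl libraries, and all 3 lay below WT (log2 fold change -0.31 ± 0.0941, limma adjusted p 0.0408). The adjusted p was 0.0949 without G9gl replicate 2, and 0.0900 to 0.101 without WT replicate 1, 2 or 3. After the GC and length correction it was 0.142.

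None of the 3 DNA methyltransferase genes passed the limma test, and the smallest of their unadjusted p was 0.117. Dnmt1, which encodes the maintenance enzyme, had 28.4 to 32.5 FPKM in G9gl and 29.0 to 32.6 FPKM in WT, and the 95% confidence interval of its log2 fold change ran from -0.22 to 0.13. Dnmt3a, a de novo enzyme gene, had 6.93, 5.86 and 6.30 FPKM in G9gl against 5.39, 5.68 and 5.51 FPKM in WT. The groups lay apart by a narrow gap (0.17, adjusted p 0.248), and after the GC and length correction it was called higher (0.30, adjusted p 0.0428), and under the other 18 alternatives it was not called, with an adjusted p of up to 0.694. The other de novo enzyme gene, Dnmt3b, overlapped, with 3.03 to 4.27 FPKM in G9gl and 3.16 to 4.85 FPKM in WT.

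Of the 3 TET genes, 1 fell, 1 did not pass and 1 was too low to test. That is 50% of the 2 tested called lower, against 11.6% of all tested genes. Tet3 had 7.52, 7.70 and 7.58 FPKM in G9gl against 10.1, 10.04 and 10.4 FPKM in WT, and both groups were tight (log2 fold change -0.38 ± 0.0822, limma adjusted p 0.00990). The call held without any 1 library, and after the GC and length correction the adjusted p was 0.071. Tet2, which encodes a TET enzyme with a well-known tumour suppressor role in blood cells, had 7.03 to 7.85 FPKM in G9gl and 6.98 to 8.07 FPKM in WT, so that the groups covered nearly the same range (-0.01, interval -0.22 to 0.21). The ratio of Tet3 to Tet2 was 0.958 to 1.10 in G9gl, close to parity, and 1.24 to 1.49 in WT. Tet1 had 0.304 to 0.398 FPKM in G9gl and 0.385 to 0.538 FPKM in WT, an estimated 48 to 72 fragments per library, and was below the filter of 1 FPKM in 3 libraries.

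Polycomb repressive complex 2 places methyl groups on lysine 27 of histone H3, and none of its 4 core genes passed the limma test, while Ezh2 and Suz12 had an unadjusted p of 0.0155 and 0.0354. Ezh2, which encodes the catalytic subunit of proliferating cells, had 9.22, 10.2 and 11.1 FPKM in G9gl against 8.53, 8.42 and 6.77 FPKM in WT. The groups did not overlap, and the adjusted p was 0.0615 (0.33 ± 0.113). It was not called under 16 of the 19 alternatives, and over all 19 the adjusted p ran from 0.0367 with library weights to 0.190 with TPM (0.22). Its paralogue Ezh1, typical of resting cells, was more abundant per length, with 36.8 to 37.5 FPKM in G9gl and 38.6 to 41.8 FPKM in WT (-0.09, adjusted p 0.303). The ratio of Ezh2 to Ezh1 was 0.2503 to 0.297 in G9gl and 0.173 to 0.221 in WT. Beside this, the summed level of the proliferation genes was higher in G9gl, as given above. Suz12, a scaffold subunit gene, had 11.1, 10.03 and 10.9 FPKM in G9gl against 13.4, 12.8 and 11.6 FPKM in WT without overlap (-0.22, adjusted p 0.107), and Eed, which encodes the subunit that reads the mark, overlapped at 39.3 to 41.96 FPKM in G9gl and 40.1 to 44.0 FPKM in WT.

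The groups overlapped for the H3K4 methyltransferase genes Kmt2a and Kmt2d, and neither passed. Kmt2a had 12.6 to 14.4 FPKM in G9gl and 13.3 to 15.5 FPKM in WT, and Kmt2d 14.0 to 15.7 FPKM in G9gl and 14.2 to 16.9 FPKM in WT, with intervals of -0.25 to 0.16 and -0.23 to 0.18. Kmt2c, which with Kmt2d encodes the methyltransferases of enhancers, had 16.5, 13.1 and 15.3 FPKM in G9gl against 18.3, 17.7 and 18.4 FPKM in WT, lower in all 3 libraries without passing (-0.27 ± 0.0923, limma adjusted p 0.0664). Setd2, which encodes the enzyme of H3K36 trimethylation, had 24.8 to 28.3 FPKM in G9gl and 28.0 to 31.4 FPKM in WT and did not pass (-0.17, adjusted p 0.152).

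Of the H3K9 methyltransferase genes, Ehmt1 was called lower. Its product GLP works as a heterodimer with G9a, the product of Ehmt2. Ehmt1 had 19.1, 19.4 and 20.4 FPKM in G9gl against 22.8, 23.2 and 26.9 FPKM in WT, without overlap (log2 fold change -0.29 ± 0.0820, limma adjusted p 0.0322). That call held in the fit without WT replicate 1, and without any 1 of the other 5 libraries it was lost, with an adjusted p of up to 0.0956. The call of Ehmt1 was also lost after the GC and length correction (-0.19, adjusted p 0.114). Ehmt2 went the other way without passing, with 28.9, 30.1 and 29.7 FPKM in G9gl against 23.0, 25.5 and 29.2 FPKM in WT. G9gl replicate 1 was slightly below WT replicate 3 (0.19, adjusted p 0.148). After the GC and length correction it was called higher (0.37, adjusted p 0.014), but under 16 of the 19 alternatives it was not called, with an adjusted p of up to 0.6196. The ratio of the partners, Ehmt1 to Ehmt2, was 0.645 to 0.687 in G9gl and 0.913 to 0.989 in WT. Suv39h1, an enzyme gene of constitutive heterochromatin, had 22.8 to 24.0 FPKM in G9gl and 21.4 to 23.4 FPKM in WT, and Setdb1, which silences endogenous retroviruses, 15.3 to 17.7 FPKM in G9gl and 17.1 to 18.7 FPKM in WT. Both overlapped and did not pass.

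Among the JmjC demethylase genes, Kdm5b rose. Its product removes methyl groups from H3K4. Kdm5b had 21.5, 19.6 and 20.6 FPKM in G9gl against 16.7, 15.4 and 16.8 FPKM in WT, without overlap (log2 fold change 0.32 ± 0.0761, limma adjusted p 0.0156). The adjusted p was 0.0855 after the rescaling to TPM and 0.0637 without WT replicate 2. Kdm5a, its paralogue, had 20.7, 20.3 and 21.6 FPKM in G9gl against 22.6, 23.6 and 24.3 FPKM in WT, lower in every library without passing (-0.16, adjusted p 0.124). The ratio of Kdm5b to Kdm5a was therefore 0.952 to 1.04 in G9gl and 0.651 to 0.742 in WT. Kdm2b, which recruits a variant Polycomb complex to CG-rich promoters, had 20.9, 19.3 and 19.3 FPKM in G9gl against 23.0, 22.5 and 24.0 FPKM in WT without overlap (-0.21, adjusted p 0.0577). Kdm6b, which encodes the H3K27 demethylase JMJD3, was low in both groups, at 1.39 to 1.88 FPKM in G9gl and 1.31 to 1.80 FPKM in WT.

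Of the acetyltransferase genes Ep300 alone was called. It encodes p300, which acetylates histones at enhancers, and had 24.2, 24.2 and 24.1 FPKM in G9gl against 28.4, 29.6 and 27.2 FPKM in WT. The G9gl values were nearly equal and all below WT (log2 fold change -0.22 ± 0.0659, limma adjusted p 0.0381). Of the 6 fits that leave out 1 library, only that without WT replicate 3 kept the call, and the adjusted p of the others was up to 0.129. The call of Ep300 was also lost after the GC and length correction (adjusted p 0.282). Crebbp, its paralogue, had 17.6, 17.0 and 17.8 FPKM in G9gl against 22.9, 19.8 and 18.0 FPKM in WT, also without overlap but with a wide spread in WT (-0.20, adjusted p 0.1599). The ratio of Ep300 to Crebbp overlapped, at 1.36 to 1.42 in G9gl and 1.24 to 1.51 in WT. Kat2a and Kat2b, which encode the alternative acetyltransferases of the SAGA complex, and Kat6a, the MOZ gene, had log2 fold changes of 0.07, 0.11 and -0.09 and overlapping groups.

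The 2 remodeller ATPase genes that fell were Chd4 and Smarca2. Chd4, the motor of the NuRD complex, had 21.0, 19.8 and 19.3 FPKM in G9gl against 23.4, 26.9 and 26.1 FPKM in WT, without overlap (log2 fold change -0.33 ± 0.0779, limma adjusted p 0.0144). The adjusted p was 0.0513 without G9gl replicate 3 and 0.0620 without WT replicate 2. Smarca2, which encodes the SWI/SNF ATPase BRM, had 25.0, 22.3 and 22.2 FPKM in G9gl against 29.5, 28.6 and 27.7 FPKM in WT, again apart (-0.29 ± 0.0735, adjusted p 0.0186). It was lost, with adjusted p of 0.0592 to 0.0693, without G9gl replicate 2 or 3 or WT replicate 1 or 2. The call of Smarca2 was also lost after the GC and length correction (adjusted p 0.0690). Smarca4, which encodes the alternative ATPase BRG1, and Arid1a, which encodes a DNA-binding subunit, did not pass. Smarca4 had 35.0 to 36.9 FPKM in G9gl and 36.2 to 38.7 FPKM in WT, and Arid1a 27.7 to 28.9 FPKM in G9gl and 28.5 to 30.7 FPKM in WT, so each overlapped. The ratio of Smarca2 to Smarca4 was 0.601 to 0.714 in G9gl and 0.715 to 0.816 in WT, with almost no gap.

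Ratios within a library do not depend on how libraries are scaled to one another. In 9 of 13 pairs of related genes the ratios of the G9gl libraries did not overlap those of the WT libraries, and in 4 they did (Hdac5 to Hdac7, Ep300 to Crebbp, Dnmt3a to Dnmt3b and Kat2b to Kat2a). Of the 9 pairs, 8 hold a gene that was called, and for single genes 40.8% of all tested did not overlap. Ratios of other gene pairs were not computed. With 3 libraries against 3 a two-sided exact permutation test cannot give a p below 0.1, and the 9 pairs had that p, or 0.144 adjusted over the 13. The shift in Rcor1 to Rcor3 was the largest, at -1.48 on the log2 scale, and those of Ezh2 to Ezh1 and Kdm5b to Kdm5a were 0.47 and 0.50. A ratio shows that the 2 genes changed unequally and not which of them changed.

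**Figure D4:**
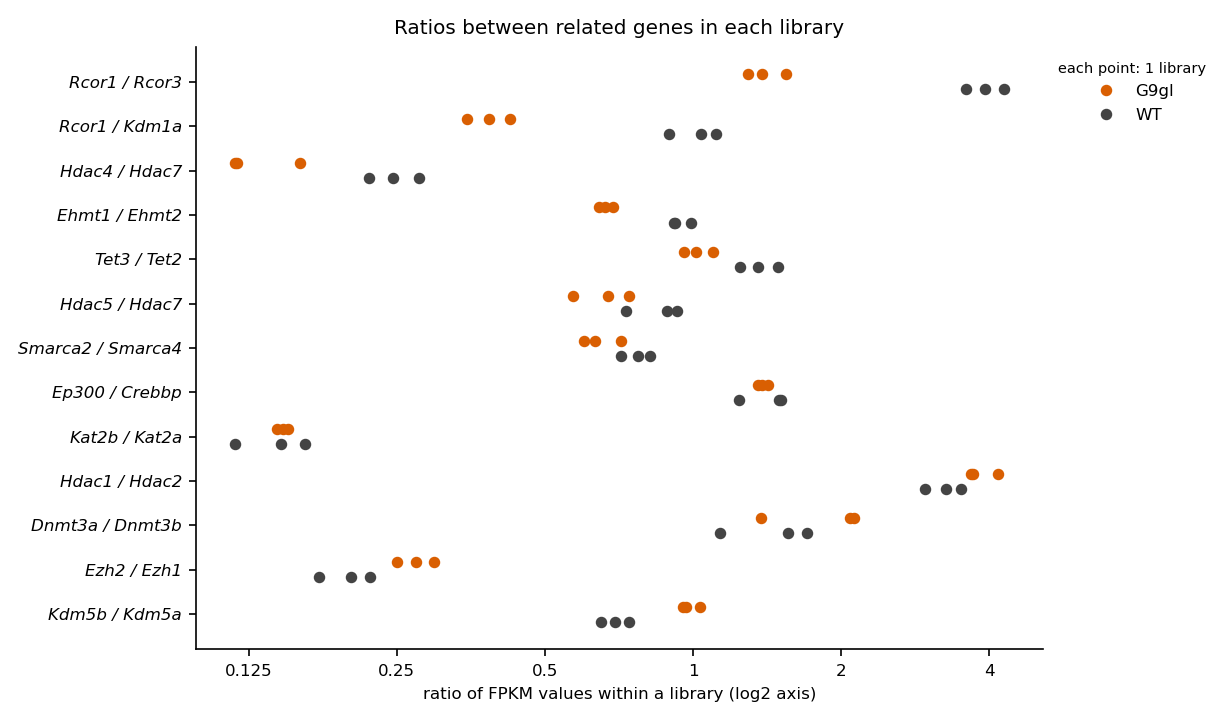
Ratio of FPKM values within each library for 13 pairs of related regulators (log2 axis), with G9gl above WT in each row and 1 point per library. Rcor1 to Rcor3 is 1.29 to 1.54 in G9gl against 3.58 to 4.28 in WT, while the groups overlap for Ep300 to Crebbp and Kat2b to Kat2a.

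A wider list of 180 other chromatin genes, of which 177 were in the tables, gave 6 higher and 26 lower of 170 tested, that is 3.53% and 15.3% against 11.8% and 11.6% of all tested genes, with a median log2 fold change of -0.08. After the rescaling to TPM the counts were 3 higher and 63 lower, or 1.76% and 37.1% against 7.21% and 24.6% of all genes. After the GC and length correction they were 13 and 19 of 165, or 7.88% and 11.5% against 11.0% and 11.4%, so the share called lower was then close to that of all genes. The largest decrease was that of Setd8, which encodes the H4K20 monomethyltransferase, with 10.2, 6.45 and 7.70 FPKM in G9gl against 24.0, 21.8 and 20.4 FPKM in WT (-1.36, limma adjusted p 1.65e-04). Like Rcor1 it was lowest in G9gl replicate 2 and far below WT in all 3 libraries. Among corepressors, the Groucho-family genes Tle4 and Tle3 fell by 1.10 and 0.52 on the log2 scale. Mbd2, which encodes a reader of methylated CG, was called lower, with 6.14, 8.29 and 5.88 FPKM in G9gl against 35.0, 15.4 and 8.47 FPKM in WT, where WT replicate 1 stood far above the other WT libraries (adjusted p 0.0491). The call for Mbd2 held without WT replicate 3 and was lost without any 1 of the other 5 libraries, with an adjusted p of up to 0.117. The glycosylase gene Tdg, which acts after TET oxidation, was called at an adjusted p of 0.0480.

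The regulators and the wider list were also counted together by complex, with no test of a complex. These counts were made without the GC and length correction and were not repeated with it. Under that correction Gatad2a, Mbd2, Smarca2, Arid2 and Chd2 lost their calls. The other NuRD, SWI/SNF and CHD genes called kept theirs. Of 13 tested NuRD genes, Hdac1 rose and Chd4, Mta2, Mta3, Gatad2a and Mbd2 fell, that is 38.5% lower against 11.6% of all tested genes, while 7 of the 13 were above 0 and the median log2 fold change was 0.04. Of 21 tested SWI/SNF genes Smarca2, Arid1b, Smarcd2, Smarcc2, Arid2 and Brd7 fell, or 28.6% against 11.6% of all tested genes, and the other 15 did not pass. The median was -0.11, and 18 of the 21 were below 0, as were 50.3% of all tested genes. Arid1b, which encodes the alternative to the ARID1A subunit, had 13.5, 9.98 and 11.6 FPKM in G9gl against 18.2, 18.8 and 18.0 FPKM in WT (-0.61, adjusted p 0.00290). Smarcd2 had 93.4, 77.4 and 74.4 FPKM in G9gl against 108.0, 112.2 and 108.6 FPKM in WT. Of the 8 CHD genes Chd7 (-0.51, adjusted p 0.00135), Chd2 and Chd4 fell (37.5%). Of 11 Polycomb repressive complex 2 genes, only Phf19, which encodes an accessory subunit, was called, or 9.09% against 23.4% of all tested genes. Phf19 was higher, at 1.77 to 2.31 FPKM in G9gl and 0.789 to 1.26 FPKM in WT. In Polycomb repressive complex 1 Pcgf5 rose, and Phc2, with 51.8, 19.1 and 36.6 FPKM in G9gl against 65.0, 71.8 and 74.8 FPKM in WT, and Cbx7 fell.

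Further genes on the wider list went in both directions. The deacetylase gene Hdac11 rose by 0.67 on the log2 scale, and Sirt6, the sirtuin gene of telomeric and damaged chromatin, by 0.34, while Hdac10 fell by 0.32. The demethylase gene Kdm7a (-0.53, adjusted p 0.00312) and the arginine and H3K9 methyltransferase genes Carm1 (-0.73) and Setdb2 (-0.34) fell. Chaf1a, which encodes a histone chaperone of replicating chromatin, rose by 0.46, with 2.64 to 3.38 FPKM in G9gl and 1.59 to 2.18 FPKM in WT. On the wider list, Setd8, Tle4, Tle3, Mta3, Arid1b, Smarcd2, Smarcc2, Chd7, Kdm7a, Cbx7, Hdac10 and Hdac9 kept their calls without any 1 library, and each other gene called there lost its call in at least 1 of the 6 fits.

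**Figure D5:**
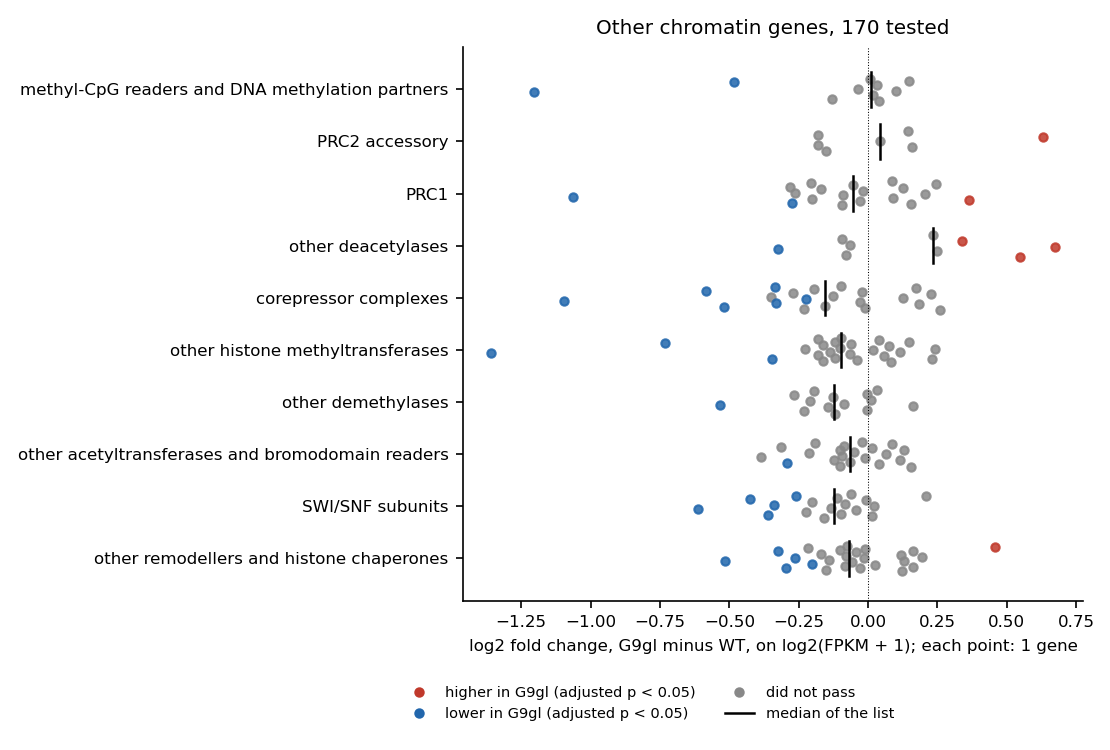
Log2 fold change (G9gl minus WT, horizontal axis) of 170 other chromatin genes in 10 lists, 1 point per gene, with a black bar for the median of each list. Most points lie between -0.3 and 0.3, and Setd8, Mbd2, Tle4 and Phc2 form the far left of their lists.

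Rcor1, Sirt1 and Hdac4 stayed lower and Hdac1 higher, each past the threshold, under all 19 alternative ways of processing the values, and no call of a regulator changed sign. Among the 10 regulators called lower, the lowest value was in G9gl replicate 1 for 2 genes and in replicates 2 and 3 for 4 genes each. Of all genes called lower, the shares for replicates 1 to 3 were 29.2%, 41.2% and 29.6%, and 10 genes are too few to compare with these. Erythroid transcripts were uneven, with 205 FPKM of Hba-a1 in G9gl replicate 1 against 67.5 and 29.7 FPKM in the other G9gl libraries and 25.8 to 42.7 FPKM in WT, and without that library 3 regulators were called higher and 10 lower. Without WT replicate 2, by contrast, 1 was called higher and 4 lower (Rcor1, Sirt1, Hdac4 and Tet3).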

How the data were processed

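Trizol-extracted RNA was made into libraries with SMART-Seq HT and Nextera kits, which keep no strand, per the labels' protocols. Per the submitters' processing notes, the tools were Cufflinks 2.2.1, TopHat2 2.0.13, SAMtools 0.1.19 and Bowtie2 2.2.3, with build mm10. The deposited tables hold FPKM, computed by the authors for each gene symbol. The unit was read from these tools and from the values, and the annotation and scaling are not given. FPKM totals were 657759 to 671533 in G9gl and 603054 to 611557 in WT, so FPKM does not set libraries to one total. Depth was estimated from the FPKM value that 1 fragment gives. Immunoglobulin genes were not analysed here.

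The 10122 genes that reached 1 FPKM in 3 or more of the 6 libraries were tested with limma 3.58.1 in R 4.3.3 (lmFit, eBayes with trend) on log2(FPKM + 1), with 1 term, genotype, and Benjamini-Hochberg adjusted p over all of them. The script was tested on simulated data. Ratios between genes used a two-sided exact permutation test. Transcript lengths, GC content and positions came from GENCODE vM21 (GRCm38, the assembly of mm10), matched by symbol for 96.2% of tested genes, and promoter windows from RefSeq. Alternatives were other pseudocounts, filters and scalings, library weights, a robust fit, a replicate block, a GC content and length correction, and leaving out each library.

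The regulators and the wider list were chosen with earlier results of these data known, so their counts are descriptions. All 42 regulators are named. Of each part of the wider list, up to 3 genes with the smallest adjusted p and an absolute log2 fold change of at least 0.3 were taken. Rcor2, Mta2, Gatad2a, Arid2, Brd7, Cbx7, Sirt6, Traf3, Mark3, Eif5, Snora28 and Trmt61a were named after their values were seen.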

Additional observations from a re-analysis of the deposited data

How the results depend on the processing

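Over 19 alternatives, 716 values of single regulators stayed on their side of the threshold, 42 lost a call and 19 gained one. The 12 called regulators kept their sign throughout, whereas 36 of 549 values of the other 29, in 14 genes, crossed 0 without being called, 8 of them after the GC and length correction (log2 fold changes up to 0.17 in size) and 4 with TPM. For the 2 regulators called higher and 10 called lower, the counts were 1 and 18 with values rescaled to TPM, 4 and 4 after the GC and length correction, and 3 lower with that correction and the replicate block together. Leaving out 1 library gave 1 to 3 higher and 4 to 10 lower. For the wider list of other chromatin genes, with 6 higher and 26 lower, the counts were 3 and 63 with TPM, 2 and 16 without a filter on low values, 11 higher with library weights and 13 higher after the correction. Leaving out 1 library gave 2 to 8 higher and 11 to 25 lower. The causes of these shifts were not tested. In the fit with the replicate block, 2 regulators were higher and 9 lower, and Ep300 was lost (adjusted p 0.0745). The deviations of same-numbered libraries from their group means had correlations of 0.099, -0.069 and 0.021, and those of differently numbered libraries ran from -0.153 to 0.157. With 3 libraries per group, the deviations within a group constrain one another, so these values cannot decide whether the numbers pair the libraries. For genes such as Tet1, at an estimated 48 to 72 fragments, and Kdm6b, at 87 to 130, a small difference was not detectable at this depth.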
